A study of Mus musculus with 1504 samples.

Results

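Calcrl, Ramp1, Ramp2, Ramp3 and Adm encode the receptor shared by calcitonin gene-related peptide (CGRP) and adrenomedullin, its 3 accessory proteins, and the precursor of adrenomedullin. These 5 genes, of 21947 in the table of read counts, were taken by name as the components of this receptor system, and no measured value entered the choice. Each was followed over the 6 column sets of the table and over cell classes defined by marker genes, and Calcrl was scored together with each Ramp gene cell by cell.

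The cells were taken from lungs of adult C57BL/6 reporter mice, sorted singly to 384-well plates by reporter fluorescence, and read with SMART-seq2, a method that covers the full length of polyadenylated transcripts. The labels list 769 cells from Cldn5(BAC)eGFP mice, in which a bacterial artificial chromosome drives eGFP from Cldn5 sequences in endothelium, 374 from Pdgfrb(BAC)eGFP mice, and 361 from mice with Pdgfrb(BAC)eGFP and NG2dsRed, reporters of the mural cells that wrap vessels. All of them carried at least 1 reporter transgene, and the age was 12 to 15 weeks in the sample labels and 10 to 19 weeks in the design text. The columns form 6 sets. EC1 has 243 cells, EC2 275 and EC3 251, all taken as Cldn5(BAC)eGFP, and the others are Mural1, Mural2 and Mural3, with 128, 233 and 374 cells, whose names give no reporter and which keep their own names here. No animal is named, so each set or class counted as 1 sample, no p-value was computed, and every interval below is a 95% interval that covers counting error only.

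Calcrl is a G protein-coupled receptor that reaches the cell surface and binds its ligands only in complex with a receptor activity-modifying protein (RAMP). With RAMP1 it forms the CGRP receptor, and with RAMP2 or RAMP3 it forms the adrenomedullin receptors AM1 and AM2, all of which signal mainly through Gs and cyclic AMP. CGRP comes mostly from sensory nerve endings and relaxes arterial smooth muscle, while adrenomedullin is made locally, dilates vessels and tightens the endothelial barrier, and in the mouse the adrenomedullin, Calcrl and Ramp2 genes are needed for blood and lymph vessels to form.

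Depth was 240178 reads in genes for the median cell (range 100229 to 609242). Clusters built without the 5 genes gave 658 general capillary-like cells, 76 aerocyte-like cells (the large alveolar capillary cells), 22 lymphatic-like, 70 pericyte-like, 69 smooth muscle-like, 358 fibroblast-like and 43 chondrocyte-like cells. The endothelial classes came from the EC sets except for 2 general capillary-like cells of Mural1, all pericyte-like cells came from Mural1 and Mural2, and 274 fibroblast-like cells came from Mural3. The mural sets therefore held many cells that carried fibroblast markers, and 168 cells with markers of alveolar epithelium or leukocytes beside those of other cells stayed unnamed, as did a cluster of 40 cells. Median reads per cell were 192168 in the general capillary-like and 373368 in the fibroblast-like class, so shares of cells with a read are given after thinning every cell to 50000 reads.

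The genes lie apart in the mouse genome (GRCm38, GENCODE vM21). Calcrl is at chr2:84330626-84425411 on the minus strand, Ramp1 at chr1:91179822-91225196, Ramp2 at chr11:101246028-101259546, Ramp3 at chr11:6658521-6677475 and Adm at chr7:110627661-110629820, all 4 on the plus strand. The Ramp2 gene model overlaps Vps25 on the same strand over 5840 bases, Ramp3 overlaps Gm11978 on the other strand over 1713 bases, and Adm lies inside the antisense gene Gm28863. SMART-seq2 reads do not mark strand, so strand cannot part reads of Ramp3 from Gm11978 or of Adm from Gm28863. Ramp2 and Vps25 lie on the same strand, so strand would not part their reads in any case. These overlaps are of whole gene spans, and the overlap of exons was not computed. Promoter windows of 250 bases before the RefSeq start (GRCm38.p6) are shown for Calcrl, Ramp1 and Adm, because these members led in 3 different kinds of cell, endothelial, smooth muscle-like and fibroblast-like. Ramp3 also matched an entry of the table. Capitals mark the ETS core GGAA, on either strand, in Calcrl, and the hypoxia-response cores ACGTG and GCGTG, on either strand, in Adm. A match on the other strand reads TTCC or CACGC. In the Ramp1 window capitals would mark the CArG box bound by serum response factor, and it held none. Each motif was searched in every window, and only the one named is in capitals.
Calcrl promoter, chr2:84425267-84425516, minus strand: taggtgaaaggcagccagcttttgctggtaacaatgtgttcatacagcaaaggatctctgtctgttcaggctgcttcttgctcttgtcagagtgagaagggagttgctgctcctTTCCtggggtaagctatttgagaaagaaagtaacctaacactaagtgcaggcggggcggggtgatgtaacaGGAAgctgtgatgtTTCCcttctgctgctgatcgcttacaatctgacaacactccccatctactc
Ramp1 promoter, chr1:91179572-91179821, plus strand: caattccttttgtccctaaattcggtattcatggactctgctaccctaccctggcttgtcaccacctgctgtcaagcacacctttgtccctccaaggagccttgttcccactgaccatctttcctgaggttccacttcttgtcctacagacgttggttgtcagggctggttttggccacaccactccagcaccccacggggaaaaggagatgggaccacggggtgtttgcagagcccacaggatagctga
Adm promoter, chr7:110627407-110627656, plus strand: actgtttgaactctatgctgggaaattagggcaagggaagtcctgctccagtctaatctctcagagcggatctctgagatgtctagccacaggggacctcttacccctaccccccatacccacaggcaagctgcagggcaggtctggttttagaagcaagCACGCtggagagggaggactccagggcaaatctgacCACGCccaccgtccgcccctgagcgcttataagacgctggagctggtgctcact
The Calcrl window held 3 GGAA cores, the Ramp1 window 5 and the Adm window 2, a motif present in 93.4% of 32851 windows of this length. The Adm window held 2 GCGTG cores and no ACGTG core, which were present in 28.2% and 16.6% of windows, and the CArG box was present in 1.47%. These matches describe the letters of the windows only.

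Calcrl, the receptor subunit, was highest in the endothelial sets. Its level, in CPM, the counts of a gene summed over cells and scaled to 1000000 reads, was 3048 in EC1, 3207 in EC2 and 3426 in EC3, and 97.1%, 97.8% and 98.4% of cells held a read. In the mural sets it was 82.9 CPM in Mural1, 90.2 in Mural2 and 17.9 in Mural3, with a read in 12.5%, 36.1% and 13.1% of cells. The EC and mural sets did not overlap. In Mural1, 1 cell held 55.3% of the Calcrl reads, and it was 1 of the 2 general capillary-like cells of that set. The unnamed mixed cluster held 3346 of the 5391 Calcrl reads of Mural2 and 1570 of the 2405 of Mural3. The levels and folds of whole mural sets include these cells. A size rule took the place of a test: a gene passed with a fold of at least 4, a level of at least 50 CPM in the higher group and a read in at least 25% of that group's cells. Between the EC sets and Mural1 with Mural2, 3 of the 5 members passed, where 4.24% of all genes did, and between the EC sets and Mural3, 3 of 5 passed, where 4.62% did. Calcrl was 37.0-fold higher (36.2 to 37.8) and 180-fold higher (173 to 188) in the EC sets in these comparisons. In whole sets, the number of cells of a class and the reads per cell cannot be told apart, so the classes are described next.

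Among classes, Calcrl was 3474 CPM in general capillary-like cells, with 3266, 3460 and 3688 CPM in EC1, EC2 and EC3. It was 3080 CPM in aerocyte-like cells, with 2741, 2728 and 3427 CPM in the same sets. These ranges overlapped, but within each of the 3 sets Calcrl was higher in general capillary-like cells. The 1.13-fold difference over all sets (1.12 to 1.14) did not pass. Scaling with TMM or median-ratio factors shifted all log2 differences between these classes by -0.28 or -0.34. Either shift is larger than this difference, so its direction depends on the scaling. All 658 general capillary-like cells held at least 1 Calcrl read before thinning, and the level per cell ran from 5.53 CPM through a median of 3048 to 11798 CPM. Lymphatic-like cells had 516 CPM and a read in 17 of 22 cells, or 77.3% (54.6% to 92.2%). Calcrl was thus 6.73-fold higher (6.49 to 6.98) in general capillary-like than in lymphatic-like cells, the single member to pass in that comparison, where 2.99% of held-out genes did. Held-out genes are the 10970 genes that the clustering could not use.

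Outside endothelium Calcrl was low and uneven between sets. Pericyte-like cells had 6.18 CPM in Mural1 and 70.8 CPM in Mural2, and 44.0 CPM together. Smooth muscle-like cells had 0.763 CPM in Mural1 and 32.7 CPM in Mural2. Fibroblast-like cells had 48.0, 55.5 and 5.21 CPM in Mural1, Mural2 and Mural3, and chondrocyte-like cells had 25.3 CPM. A single cell held 80.6% of the reads in the pericyte-like cells of Mural1, 41.3% in the smooth muscle-like cells of Mural2, and 42.6% and 63.4% in the fibroblast-like cells of Mural1 and Mural2. The ranges of these 4 classes overlapped from each to the next, so their order is not established, although Calcrl was higher in pericyte-like than in smooth muscle-like cells within both sets. General capillary-like cells exceeded pericyte-like cells 79.0-fold (72.6 to 86.2) in Calcrl, and 2 of the 5 members, Calcrl and Ramp2, passed in this comparison, beside 3.98% of held-out genes.

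The endothelial transcripts Cdh5 and Pecam1, which encode junction proteins, moved with Calcrl in part of these classes. Their summed level was 2.99 CPM in Mural1 and 37.8 CPM in Mural2 for pericyte-like cells, 17.9 and 28.0 CPM for smooth muscle-like cells, and 15.4, 68.9 and 10.6 CPM in Mural1, Mural2 and Mural3 for fibroblast-like cells. The 10 endothelial markers of the list together gave 665 CPM in pericyte-like, 327 CPM in smooth muscle-like and 201 CPM in fibroblast-like cells, against 14266 CPM in general capillary-like cells, and only 1 marker was at 0, in the pericyte-like class. In pericyte-like cells most of this sum was Esam, at 657 and 435 CPM in Mural1 and Mural2. In smooth muscle-like cells, 6 of the 12 cells with a Calcrl read and 9 of the 57 without one held Cdh5 or Pecam1. In pericyte-like cells this was 1 of 13 with and 6 of 57 without, and in fibroblast-like cells 9 of 29 with and 26 of 329 without. The part of endothelial RNA in the Calcrl reads of these classes was not tested.

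Ramp2, the accessory protein that turns Calcrl into the AM1 adrenomedullin receptor, was the Ramp gene of endothelium. It stood at 3642, 3086 and 3178 CPM in EC1, EC2 and EC3 and at 117, 128 and 139 CPM in Mural1, Mural2 and Mural3. The EC sets exceeded Mural1 with Mural2 26.5-fold (26.0 to 27.0) and Mural3 23.6-fold (23.2 to 23.9), with no overlap between sets. In aerocyte-like cells it was 4586, 3452 and 3716 CPM in the 3 EC sets, and in general capillary-like cells 3732, 3187 and 3231 CPM. These ranges overlapped, but within each of the 3 sets Ramp2 was higher in aerocyte-like cells. Their 1.13-fold lead over all sets (1.13 to 1.14) did not pass, so no member passed between the capillary classes, where 0.975% of held-out genes did. Lymphatic-like cells had 922 CPM of Ramp2 and a read in 95.5% of cells. The 3.66-fold difference from general capillary-like cells (3.56 to 3.76) lay under the 4-fold limit, but passed it under both other scalings, at log2 differences of 2.08 and 2.01.

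Fibroblast-like cells carried Ramp2 without much Calcrl. Ramp2 was 173, 216 and 146 CPM in Mural1, Mural2 and Mural3, 157 CPM over the class, and 72.9% of cells held a read, while 8.10% held a Calcrl read. Pericyte-like cells had 17.2 and 46.9 CPM in Mural1 and Mural2, and smooth muscle-like cells 9.53 and 35.7 CPM, all below the fibroblast-like values. Ramp2 was 4.56-fold higher (4.14 to 5.04) in fibroblast-like than in pericyte-like cells and 5.55-fold higher (5.10 to 6.04) than in smooth muscle-like cells, and both differences passed. Without Mural1 the first of these no longer passed, at a log2 difference of -1.73 for pericyte-like against fibroblast-like cells, and Calcrl passed instead, at 2.54. Chondrocyte-like cells lay between, at 85.0 CPM with a read in 48.8% of cells.

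Per kilobase of transcript, which allows levels of different genes to be compared, Ramp2 stood at 2862 CPM and Calcrl at 712 CPM in general capillary-like cells. The ratio of Ramp2 to Calcrl per kilobase was 4.02 there, 5.14 in aerocyte-like, 7.40 in lymphatic-like, 3.25 in pericyte-like and 4.89 in smooth muscle-like cells. In fibroblast-like cells it was 41.5, and by set 15.0, 16.1 and 116 in Mural1, Mural2 and Mural3. The ratio over the class is thus high through the low Calcrl of Mural3. The smooth muscle-like cells of Mural1, at 51.8, lay inside this range, but this value rests on 4 Calcrl reads. Those of Mural2 were at 4.53, and pericyte-like cells were at 11.5 in Mural1 and 2.74 in Mural2. Vps25, the neighbour whose reads may be shared with Ramp2, was 236, 387 and 337 CPM in general capillary-, aerocyte- and lymphatic-like cells. It was 200 in pericyte-like, 198 in smooth muscle-like, 158 in chondrocyte-like and 130 in fibroblast-like cells. Like Ramp2 it was highest in the endothelial classes, but it ran the other way between fibroblast-like and the other mural classes, and how far shared reads enter Ramp2 was not tested.

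Ramp1, the partner of Calcrl in the CGRP receptor, was highest in smooth muscle-like cells. Smooth muscle of vessels and of airways was not set apart in this class. It was 490 CPM in the 16 smooth muscle-like cells of Mural1, all of which held a read, and 247 CPM in the 52 of Mural2, of which 84.6% did. Over the class it was 308 CPM in 87.0% of cells (60 of 69), with a median of 261 CPM per cell and a highest value of 1334. No other class had a set that reached these values. Pericyte-like cells held 3 Ramp1 reads in all, in 70 cells, and the ratio of smooth muscle-like to pericyte-like cells was 1239-fold with a counting interval of 424 to 6011. Ramp1 was the single member to pass in that comparison, where 4.14% of held-out genes did.

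In fibroblast-like cells Ramp1 was 32.3, 11.2 and 17.2 CPM in Mural1, Mural2 and Mural3, and 12.6% of cells held a read. Smooth muscle-like cells exceeded them 17.2-fold (16.4 to 18.0), and 2 of 5 members passed between these classes, Ramp1 and Ramp2 in opposite directions, beside 3.31% of held-out genes. In endothelium Ramp1 reads were few. General capillary-like cells had 4.61 CPM, with 54.2% of the reads in 1 cell, and 7 of 658 cells held a read after thinning. Aerocyte-like and lymphatic-like cells had no read, which in the 76 and 22 cells allows a share of up to 3.95% and 13.6%. Over whole sets Ramp1 was 86.8, 95.6 and 24.6 CPM in Mural1, Mural2 and Mural3 against 5.83, 6.69 and 7.67 CPM in EC1, EC2 and EC3. It was 13.6-fold higher (12.8 to 14.5) in Mural1 with Mural2 than in the EC sets and passed, but not without Mural2, where the log2 difference was -3.68.

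**Figure D1:**
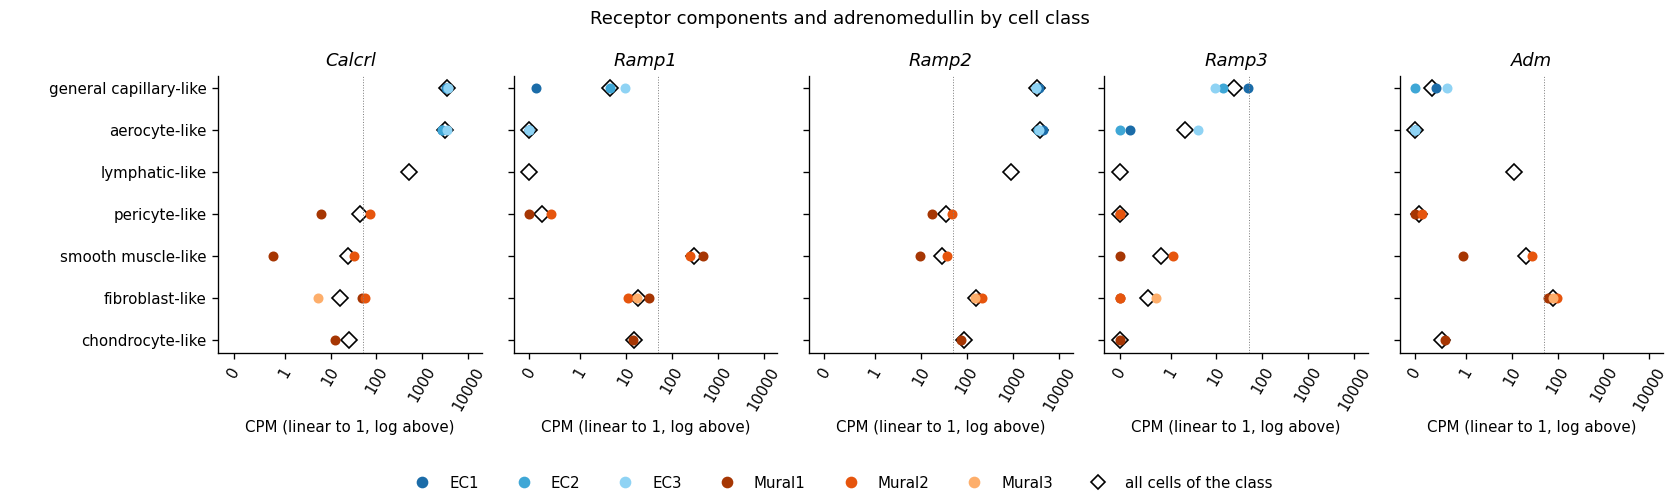
Levels of the 5 genes (CPM, linear up to 1 and logarithmic above) in 7 cell classes. Diamonds are all cells of a class, coloured points the column sets with at least 10 cells of it, and the dotted line marks 50 CPM. Calcrl and Ramp2 lie between 2728 and 4586 CPM in every set of both capillary classes, Ramp1 leads in smooth muscle-like cells at 308 CPM and Adm in fibroblast-like cells at 80.3 CPM.

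Ramp3, which makes the AM2 adrenomedullin receptor with Calcrl, was found in few cells. In general capillary-like cells it was 49.3, 14.2 and 9.21 CPM in EC1, EC2 and EC3, and the cells with a read numbered 15 of 214, 5 of 240 and 5 of 202. Over the class these were 25 of 658 cells, or 3.80% (2.47% to 5.56%), and 1 cell held 19.3% of the reads. The highest cell reached 2603 CPM, so the class level of 23.8 CPM describes a mostly empty class with few strong cells. The level of EC1 was above those of EC2 and EC3 by more than the counting intervals, but 1 cell held 29.2% of its reads. The shares of cells, 7.01% (3.98% to 11.3%), 2.08% (0.680% to 4.79%) and 2.48% (0.808% to 5.68%), had overlapping intervals. Aerocyte-like cells had a read in 1 of 76 cells, and pericyte-like, lymphatic-like and chondrocyte-like cells had none. Ramp3 therefore passed in no comparison.

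Calcrl and Ramp2 were found together in nearly every cell of the capillary classes, from which arterial and venous cells were not set apart. In general capillary-like cells, 648 of 658 cells, or 98.5% (97.2% to 99.3%), held reads of both, and the product of the 2 single shares was also 98.5%. In EC1, EC2 and EC3 the shares were 98.6%, 97.9% and 99.0%. In aerocyte-like cells they were 74 of 76, or 97.4% (90.8% to 99.7%). With both genes in almost all cells, co-detection and its product cannot differ by much. Across general capillary-like cells the log2 levels of Calcrl and Ramp2 gave a Pearson r of 0.0891 (n = 658 cells), and of 0.258, 0.0156 and 0.0550 within EC1, EC2 and EC3. These values are weak, and the cells share libraries and depth. In lymphatic-like cells, all 17 cells with Calcrl also held Ramp2, and 4 more held Ramp2 alone.

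Ramp1 and Ramp3 rarely joined Calcrl in endothelium. Calcrl with Ramp2 as the only Ramp gene made up 93.6% of general capillary-like cells (616 of 658), Ramp2 with Ramp3 3.80% (25 cells) and Ramp1 with Ramp2 1.06% (7 cells). All 25 cells with Ramp3 and all 7 with Ramp1 thus held Calcrl and Ramp2 too. Calcrl without any Ramp read was found in 6 cells.

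**Figure D2:**
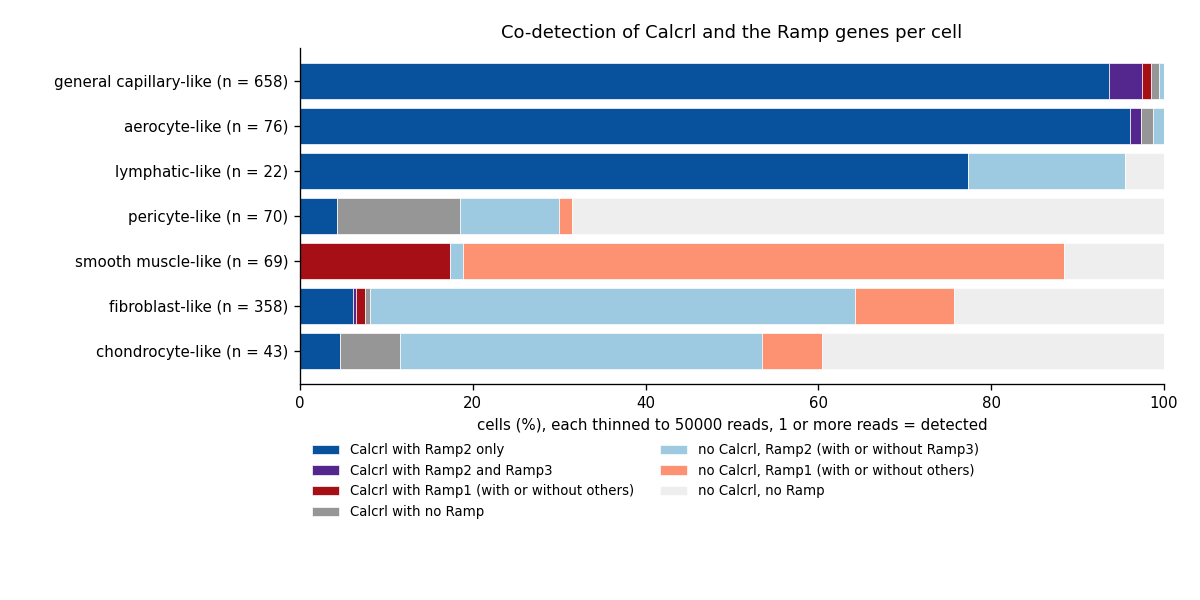
Share of cells (%) of each class by detection of Calcrl and the Ramp genes after thinning to 50000 reads. Dark blue, Calcrl with Ramp2 only, fills 93.6% of general capillary-like and 96.1% of aerocyte-like cells, while smooth muscle-like cells are mostly Ramp1 without Calcrl and fibroblast-like cells mostly Ramp2 without Calcrl.

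The smooth muscle-like cells mostly held Ramp1 without its partner. Ramp1 without Calcrl was found in 48 of 69 cells, and Calcrl with Ramp1 in 12 of 69, or 17.4% (9.32% to 28.4%), beside a product of 15.1%. All 12 Calcrl cells held Ramp1 and all came from Mural2, where they were 12 of 52. In Mural1 they were 0 of 16 cells, which allows a share of up to 18.8%. After thinning, the co-detection of the CGRP receptor pair thus rests on Mural2 alone. Before thinning, 3 of the 16 cells of Mural1 held Calcrl, with 4 reads in all, and all 16 held Ramp1. Over the class, 21 of 69 cells held Calcrl before thinning. Of the 12 cells, 7 also held Ramp2, where 8 of the 57 cells without Calcrl did. The Cdh5 and Pecam1 values of these cells are given above.

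In fibroblast-like cells, Ramp2 without Calcrl or Ramp1 was the most frequent pattern, in 200 of 358 cells or 55.9% (50.6% to 61.1%). Calcrl and Ramp2 were found together in 27 cells, or 7.54% (5.03% to 10.8%), beside a product of 5.91%. These were 27 of the 29 cells with Calcrl. Pericyte-like cells were the emptiest class, with neither Calcrl nor a Ramp read in 48 of 70 cells, or 68.6% (56.4% to 79.1%). Of their 13 Calcrl cells, 3 held Ramp2, none held Ramp1 or Ramp3, and 10 held no Ramp read.

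**Figure D3:**
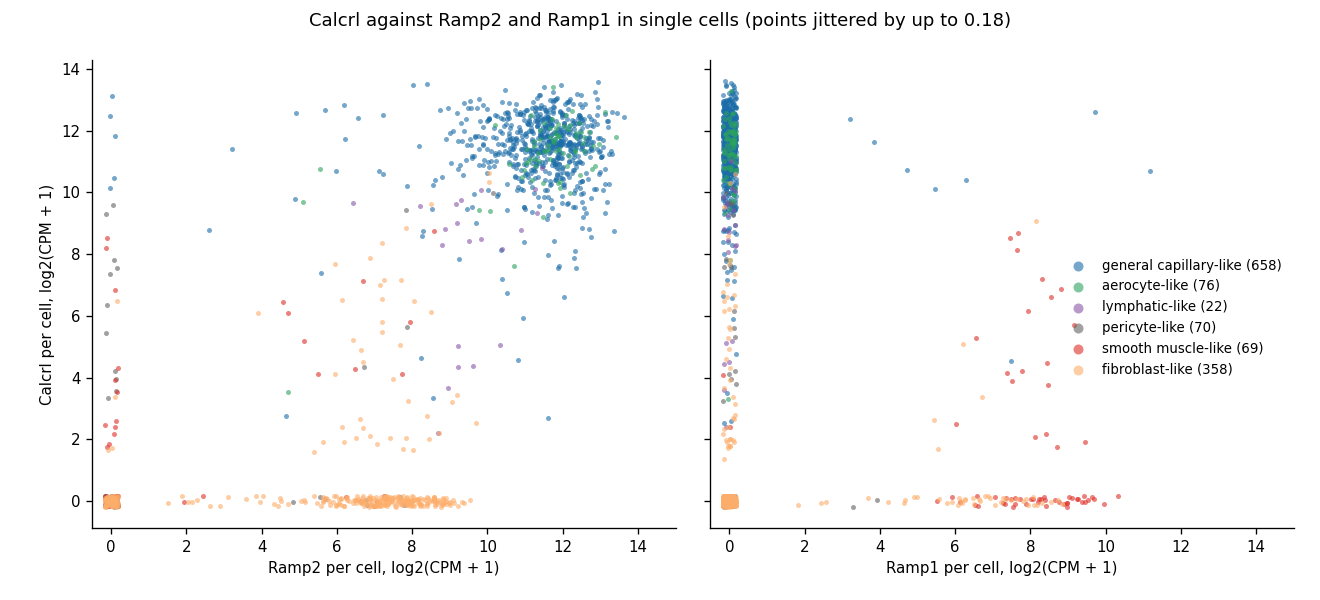
Calcrl against Ramp2 (left) and Ramp1 (right) in single cells, as log2(CPM + 1), coloured by class, with the number of cells in the legend and points jittered by up to 0.18. Capillary cells form 1 cloud high in both Calcrl and Ramp2, fibroblast-like cells lie along the Ramp2 axis without Calcrl, and smooth muscle-like cells lie along the Ramp1 axis.

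Adm, the precursor of adrenomedullin, was highest in fibroblast-like cells and at or near 0 in the capillary classes, where Calcrl and Ramp2 were highest. It was 62.6, 96.0 and 80.1 CPM in the fibroblast-like cells of Mural1, Mural2 and Mural3, 80.3 CPM over the class, with a read in 96 of 358 cells or 26.8%. Smooth muscle-like cells had 0.953 CPM in Mural1 and 27.5 CPM in Mural2, below each fibroblast-like value. General capillary-like cells had 0.330 CPM, from 43 reads, and aerocyte-like cells no read in 76 cells, which allows a share of up to 3.95%. EC2 held no Adm read in 275 cells, so up to 1.09% of its cells could hold one. The lymphatic-like level of 11.5 CPM came from 67 reads, of which 1 cell held 91.0%.

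Pericyte-like cells held 1 Adm read in 70 cells. Adm and Ramp2 passed between pericyte-like and fibroblast-like cells, 2 of 5 members beside 4.69% of held-out genes, and both were lower in pericyte-like cells. From the single pericyte-like read, the ratio for Adm was 968-fold with an interval of 174 to 38240 that covers counting error only. Without Mural3 the Adm share in fibroblast-like cells fell below the 25% limit and the gene no longer passed, with a read in 10 of 39 cells in Mural1 and 7 of 45 in Mural2. Between smooth muscle-like and fibroblast-like cells the 3.99-fold difference (3.61 to 4.42) lay just under the limit, and passed it under both other scalings, at log2 differences of -2.30 and -2.27. Adm passed between the EC sets and Mural3, where it was 101-fold higher (84.0 to 123) in Mural3 at 68.2 CPM. It did not pass against Mural1 with Mural2, at 22.7 and 48.1 CPM.

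The fibroblast-like class joined 2 clusters, which were compared after their values were seen. The larger, of 324 cells, had 170 CPM of Ramp2 and a read in 78.1% of cells, 88.2 CPM of Adm in 29.3% and 17.2 CPM of Calcrl. The smaller, of 34 cells, had 26.4 CPM of Ramp2 in 23.5%, 0.675 CPM of Adm in 2.94% (1 cell) and 0.422 CPM of Calcrl. The larger cluster was led in fold over all other cells by Lsamp, Sfrp4 and Scara5 and the smaller by Col28a1, Upk1b, Gper1 and Ch25h. Both held cells of Mural1, Mural2 and Mural3. Between the fibroblast-like cells of Mural1 with Mural2 and those of Mural3, no member passed, where 0.155% of held-out genes did. Adm was 81.1 against 80.1 CPM and Ramp1 20.6 against 17.2 CPM, while Calcrl was 10.0-fold higher (9.07 to 11.1) in Mural1 with Mural2, at 52.2 against 5.21 CPM, and failed the rule on its share of cells, since Mural1 had a read in 8 of its 39 cells and Mural2 in 7 of its 45. In these sets 1 cell each held 42.6% and 63.4% of the Calcrl reads.

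The other genes of the pathway were taken from 7 lists with 98 measured genes, and up to 4 genes of each are named, first those past the size rule by fold and then by level. The list of ligands and their other binding partners had 8 measured genes, and most were low. Calca, which encodes CGRP, was 4.93 CPM in general capillary-like and 2.32 CPM in pericyte-like cells and under 1 CPM in the other classes. Crcp, a component of the CGRP receptor complex, lay between 5.13 and 50.3 CPM. Ackr3, a scavenger receptor that binds adrenomedullin as well as chemokines, was 276 CPM in general capillary-like and 393 CPM in fibroblast-like cells. It was 4.98-fold higher (4.71 to 5.26) in general capillary-like than in aerocyte-like cells, 92.4-fold higher (66.7 to 132) than in pericyte-like cells, and 50.8-fold higher (43.4 to 60.0) in fibroblast-like than in smooth muscle-like cells, all past the rule.

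Among 12 genes of ligand processing and clearance, Cpe, a carboxypeptidase that trims peptide precursors, was 1149 CPM in smooth muscle-like and 35.3 CPM in pericyte-like cells, a 32.5-fold difference (29.6 to 35.9), and reached 1848 CPM in chondrocyte-like cells. Dpp4, a peptidase of the cell surface, was 406 CPM in general capillary-like and 1.41 CPM in pericyte-like cells. Mme, neprilysin, another peptidase of the cell surface, reached 61.0 CPM in chondrocyte-like cells, beside 38.2 in the fibroblast-like and 0.115 in the general capillary-like class. Of this list, 2 genes were higher and none lower in general capillary-like than in pericyte-like cells, where 3.98% of held-out genes passed. The list median, of the opposite sign, was -0.48 on the log2 scale beside -0.03 over the held-out genes with at least 3 reads.

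Of 13 other receptors known to pair with RAMPs, none passed in general capillary-like against aerocyte-, lymphatic- or pericyte-like cells. Of held-out genes, 0.975%, 2.99% and 3.98% passed in these comparisons. Glp1r, the receptor for glucagon-like peptide 1, was 69.5 CPM in general capillary-like cells, in 21.3% of cells, and at most 2.76 CPM in the other classes. Adcyap1r1, a receptor for the neuropeptide PACAP, was 96.9 CPM in fibroblast-like cells and at most 1.99 CPM elsewhere, and it passed as 48.7-fold (32.7 to 76.0) and 83.4-fold (55.5 to 132) higher than in pericyte- and smooth muscle-like cells. Vipr2 was highest in chondrocyte-like cells at 94.5 CPM and 22.6 CPM in fibroblast-like cells, and Pth1r in the same classes at 50.1 and 11.8 CPM, with 25.7 CPM in smooth muscle-like cells.

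The list of Gs and cyclic AMP signalling, the route downstream of the receptor, had 30 genes. Between general capillary-like and pericyte-like cells, 2 were higher and 6 lower, where 3.98% of held-out genes passed. The list median was -0.85 on the log2 scale beside -0.03 over all held-out genes. Between pericyte-like and fibroblast-like cells, 9 were higher and 1 lower, beside 4.69% of held-out genes past the rule, with medians of 1.04 and 0.61. Over all lists, 13 genes were higher and 16 lower between these classes, and 7 and 18 under TMM scaling, which shifted all log2 differences there by -0.62. Adcy8, an adenylyl cyclase stimulated by calcium, was 878 CPM in pericyte-like cells, in 77.1% of cells, and at most 1.91 CPM in the other classes. Adcy2, another cyclase, was 351 CPM in pericyte-like cells 121 in chondrocyte-like cells, 58.4 and 58.7 in smooth muscle- and fibroblast-like cells and 1.64 in general capillary-like cells. Pde3a, which breaks down cyclic AMP, was 96.5 CPM in general capillary-like, 128 in pericyte-like and 86.2 in smooth muscle-like cells, against 4.70 in fibroblast-like cells. Rapgef4, a cyclic AMP-activated exchange factor, was 166 CPM in general capillary-like and 163 in pericyte-like cells but 1.31 in smooth muscle-like cells.

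Of 8 measured genes of receptor desensitisation, 1 was higher and 2 lower in general capillary-like than in pericyte-like cells. There 3.98% of held-out genes passed, and the medians were 0.01 for the list and -0.03 for all held-out genes. Arrb1, the arrestin that uncouples activated receptors, was 299 CPM in general capillary-like and 54.7 CPM in pericyte-like cells. Adrbk2, a receptor kinase, was 250 CPM in pericyte-like and 19.6 CPM in general capillary-like cells, and Grk5, another one, 115 and 23.3 CPM. Slc9a3r1, a scaffold protein that binds receptor tails, was highest in smooth muscle-like cells at 54.8 CPM.

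Genes of the response to low oxygen were listed because Adm is known to be part of it. Of 15 such genes, 2 were higher and none lower in smooth muscle-like than in fibroblast-like cells. Of held-out genes, 3.31% passed there in either direction. The list median was 0.59 on the log2 scale beside 0.31 over the held-out genes with at least 3 reads. Both genes past the rule, Hif1a and Epas1, encode transcription factors of this response, and no other listed gene passed. Hif1a was 424 against 59.4 CPM and Epas1 925 against 57.7 CPM in these classes. Vegfa, a target of both factors, was 7.18 against 14.1 CPM and reached 273 CPM in general capillary-like cells. Ndrg1 was highest in lymphatic-like cells at 1121 CPM and stood at 141 CPM in fibroblast-like cells. Within the fibroblast-like class, 96 cells had an Adm read and 262 had none. The larger fibroblast-like cluster gave 95 of the cells with a read and the smaller, of 34 cells, gave 1. The split by Adm read thus also differs in cluster, and the part of this in the values below was not tested. Cells with and without an Adm read had 57.9 and 60.0 CPM of Hif1a, 50.7 and 60.4 of Epas1, 8.95 and 16.0 of Vegfa and 158 and 134 of Ndrg1. Of the 15 genes, 6 were higher and 9 lower in the cells with an Adm read, and the same share over all genes was not computed. The part of low oxygen in the Adm level was not tested.

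Genes of the stress response to cell dissociation differed between the classes in which Adm differed. Of 12 such genes, none was higher and 9 were lower in pericyte-like than in fibroblast-like cells, where 4.69% of held-out genes passed. The list median was -3.66 on the log2 scale beside 0.61 over all held-out genes. Nr4a1 was 27.8 CPM in pericyte-like, 1317 in fibroblast-like and 2096 in smooth muscle-like cells, and Fosb 20.1, 270 and 486 CPM. Atf3 was 15.0, 189 and 2249 CPM and Hspa1a 123, 76.7 and 1025 CPM in the same order. All 4 genes were highest in smooth muscle-like cells. Fibroblast-like cells with and without an Adm read had 306 and 143 CPM of Atf3, 366 and 234 of Fosb, 1219 and 1355 of Nr4a1 and 67.3 and 80.4 of Hspa1a. Of the 12 genes, 10 were higher and 2 lower in cells with an Adm read, and the same share over all genes was not computed. As above, the split by Adm read also differs in fibroblast-like cluster. The part of this response in the Adm level was not tested.

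**Figure D4:**
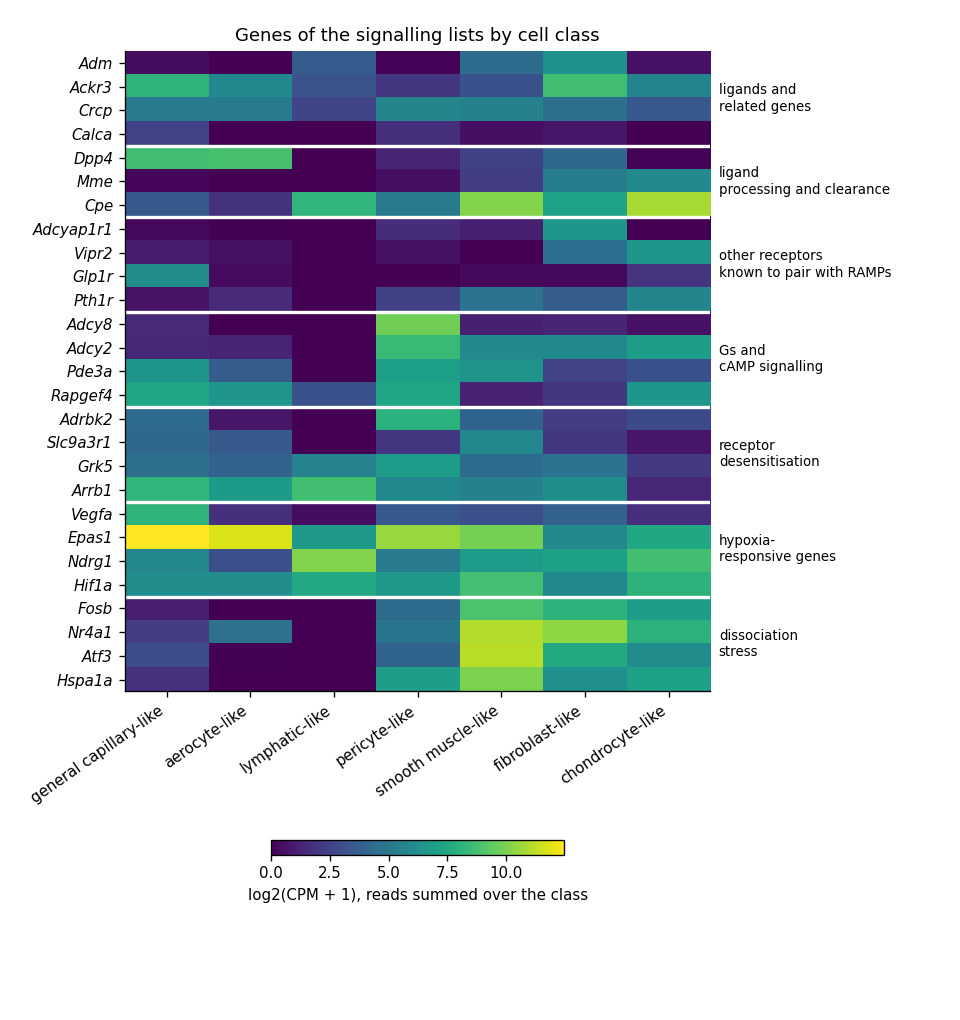
Level (log2(CPM + 1), reads summed over each class) of the named genes of the 7 lists in 7 cell classes, to be read along rows, since levels are not divided by transcript length. Adcy8 is bright in pericyte-like cells at 878 CPM, Adcyap1r1 in fibroblast-like cells at 96.9 CPM, and the 4 stress genes reach at most 24.9 CPM in the endothelial classes.

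The patterns of the members over classes were compared with those of 8631 genes as Pearson r of log2(CPM + 1) over 14 units, each the cells of 1 class in 1 set. These units share libraries and depth, so r is a description. The genes most like Calcrl were Arhgef15 (r = 0.987), Hpgd (0.987) and Cd36 (0.983), with 660, 3624 and 7138 CPM in general capillary-like cells and 1.78, 14.2 and 20.2 CPM in fibroblast-like cells. Those most like Ramp2 were Hspa12b (0.978), Slco2a1 (0.976) and Lysmd2 (0.975), and Calcrl and Ramp2 themselves gave an r of 0.950. Those most like Ramp1 were Pkdcc (0.953), Sntg2 (0.948) and Net1 (0.937), each highest in smooth muscle-like cells, with 48.9, 83.6 and 415 CPM. Those most like Ramp3 were Aplnr (0.965), Car14 (0.961) and Mctp1 (0.938), although the highest unit of Ramp3 had 49.3 CPM and rested on 15 cells. Those most like Adm were Ch25h (0.955), Cyp1b1 (0.942) and Amy1 (0.941). Ch25h was 30.6 CPM in fibroblast-like but 79.5 CPM in smooth muscle-like cells. It was also a leading gene of the smaller fibroblast-like cluster, in which Adm was 0.675 CPM. By Spearman rank correlation the 3 genes named for Adm were not among the 50 most like it.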

How the data were processed

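Reads of single SMART-seq2 libraries were aligned with STAR 2.4.2a to mm10, per the submitters' processing notes. How reads were counted, with which annotation, and how cells were filtered is not given in the sources used here. The authors deposited raw read counts per gene and cell, used for all results, and a normalized score, which for every value equalled 500000 times the gene's share of the reads in its cell, as a rounded whole number; the score served as an alternative. The eGFP row, at most 2.10% of a cell's reads, was left out of the totals. Reads ran from 100229 to 609242 per cell, so 1 read in 50000 sets the limit of detection after thinning.

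Cells were clustered with scanpy 1.11.5 (log values per 10000 reads, 2000 variable genes of 10977 usable, 30 principal components, 15 neighbours, Leiden method of leidenalg 0.10.2, resolution 1, seed 1). The members, the pathway lists and a random part of the genes that are no markers, 10970 genes in all, were held out. Clusters were named with 21 marker lists (161 of 167 entries measured). A cluster was mixed when its cells held at least 50% of the type 2 or leukocyte markers. Others with at least 50% of the endothelial markers could be general capillary-, aerocyte- or lymphatic-like. The rest could be pericyte-, smooth muscle-, fibroblast- or chondrocyte-like. The arterial and venous lists could give no name, so any such cells fall within these classes. A cluster needed at least 40% of its own markers for a name, and lost it when its 10 leading genes held more markers of another class. The members, lists, thresholds and this naming were chosen with earlier results of these data known. No doublet caller was run; cells with at least 5 endothelial and 5 mural or fibroblast markers were counted as doublet-like and left out in an alternative. No cell name occurred in more than 1 column set.

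Levels are CPM of summed reads with exact Poisson intervals, shares have Clopper-Pearson intervals, and fold intervals are exact conditional ones (scipy 1.17.1, Python 3.11.15), all at 95%. SMART-seq2 reads without molecular identifiers are not independent molecules, so intervals and limits cover counting error only. A share of 0 allows up to 3 cells of the total. The size rule needed at least 50 CPM, a read in at least 25% of cells, a fold of at least 4 and 20 cells a side, with sides under 3 reads set to 3. On simulated counts, it recovered 100% of 200 genes changed 8-fold between the general capillary-like and pericyte-like classes, with 0 false calls among 21947 genes. This covers 1 comparison and a change well above the 4-fold limit, and not genes near that limit. Named genes are the members, up to 4 of each list (past the rule by fold, then by level) and the 3 genes most like each member; 1 list gene is not reported here. Levels per kilobase use the longest principal GENCODE transcript of each gene. Scaling alternatives used TMM and median-ratio factors of edgeR 4.0.16 (R 4.3.3).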

Additional observations from a re-analysis of the deposited data

Results flagged for a closer look

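Signals of the members appeared in the clusters that stayed without a name, above the limit that a count of 0 allows. In the mixed cluster of 168 cells, Calcrl was 128 CPM, Ramp1 91.6 CPM, Ramp2 152 CPM, Ramp3 2.74 CPM and Adm 42.6 CPM. Its cells held a median of 6001 genes, the type 2 epithelial markers summed to 85167 CPM, the leukocyte markers to 16798 CPM and the endothelial markers to 653 CPM, and 47 of the 168 cells were doublet-like. Reads of Calcrl and Ramp1 were found together in 59 of these cells, or 35.1% (27.9% to 42.8%), beside a product of 32.2%, and 67 of the 89 cells with Calcrl and 32 of the 79 without it held Cdh5 or Pecam1. Because wells of this cluster carry markers of several cell types, these reads were assigned to none.

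In the cluster of 40 cells led by Dkk2, Bmp7, C1qtnf3 and Lamc3, of which 38 came from Mural3, Calcrl was 21.1 CPM, with 54.8% of its reads in 1 cell, Ramp1 3.47 CPM, Ramp2 96.1 CPM and Adm 7.02 CPM. Its fibroblast markers summed to 35798 CPM, against 67061 CPM in the fibroblast-like class. Counting it as fibroblast-like, an alternative added after seeing the data, kept each member on the same side of the size rule in the comparisons it enters.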

How the results depend on the processing

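No paired analysis was possible because no animal is named and no result comes from a test. The numbers in the set names are not said to mark a shared animal or day, and within-set values stand in the text. With no minimum level or share, members past the 4-fold limit numbered 2 (general capillary-like against aerocyte-like, with 30.2% of the genes tested), 4 (against lymphatic-like, 34.2%), 4 (against pericyte-like, 29.1%), 2 (pericyte-like against smooth muscle-like, 25.5%), 2 (fibroblast-like cells between sets, 13.7%) and 5 (EC sets against Mural1 with Mural2, 25.6%). Between general capillary-like and lymphatic-like cells 2 members passed in place of 1 with TMM factors, median-ratio factors or a fold of at least 2. At a fold of at least 2, pathway genes past the rule were 5 in place of 3 (against aerocyte-like), 16 of 9 (against lymphatic-like), 33 of 20 (pericyte-like against smooth muscle-like), 27 of 14 (smooth muscle-like against fibroblast-like) and 8 of 0 (fibroblast-like between sets). For the other scalings and this lower fold, the share of all held-out genes past the rule is not given here. These counts of members and pathway genes therefore say nothing beyond the looser setting.

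Calcrl with Ramp2 was found in 99.2% of general capillary-like cells without thinning and in 96.7% at 5 or more reads. Leaving out 1 column set, members past the rule between pericyte-like and fibroblast-like cells ranged from 1 to 2, Ramp2 in fibroblast-like cells from 149 to 197 CPM (197 without Mural3), and Calcrl with Ramp1 in smooth muscle-like cells from 0% to 22.6% (0% without Mural2). TMM or median-ratio factors lowered the share of calls higher in the first class from 52.1% to 33.5% or 35.0% between pericyte-like and fibroblast-like cells, and from 45.8% to 35.9% or 31.2% between capillary classes; between fibroblast-like sets both gave 38.9% in place of 52.9%, between smooth muscle-like and fibroblast-like cells TMM gave 43.7% in place of 53.7%, and for the EC sets against Mural3 median-ratio gave 33.4% in place of 44.2%. The other 159 values of main results stayed within their limits. TMM and median-ratio factors shifted all log2 differences between the capillary classes by -0.28 and -0.34. This is more than the Calcrl difference there, so its direction depends on the scaling. By Spearman correlation, 1, 2, 0, 1 and 0 of the 3 genes most like Calcrl, Ramp1, Ramp2, Ramp3 and Adm stayed among the 3 most alike. The low numbers of lymphatic-like cells (22) and of smooth muscle-like cells in Mural1 (16) limit shares there, and with 1 sample a group differences between animals cannot be told apart from those between classes.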

Other observations

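The 25 general capillary-like cells with a Ramp3 read were set beside the 633 without one for markers of arteries and veins, as a description with no test, and the genes named were chosen after their values were seen. Of 8 venous markers, 5 had a read in a larger and 3 in a smaller share of the cells with Ramp3, and of 8 arterial markers 3 in a larger and 5 in a smaller share, so neither list moved as a whole. Among venous markers, Slc6a2 had a read in 4 of 25 against 10 of 633 cells (16.0% and 1.58%) and Nr2f2 in 3 against 23, but Vcam1 and Selp in 0 of 25 against 10 of 633 each, and Ephb4 was 271 against 416 CPM. Vwf was 1417 against 717 CPM but had a read in 40.0% and 48.0% of cells. Among arterial markers, Efnb2 had a read in 44.0% and 64.0% of cells and Gja5 in 0 and 14 cells, but Mgp in 24.0% and 10.6% and Cxcl12 in 76.0% and 67.0%. Calcrl was 3414 and 3477 CPM and Ramp2 3656 and 3361 CPM in these groups, inside the ranges of the class over EC1, EC2 and EC3.

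Across aerocyte-like cells the log2 levels of Calcrl and Ramp2 gave a Pearson r of 0.592 and a Spearman rho of 0.330 (n = 76 cells). By set, r was 0.261 in EC1 (17 cells), 0.773 in EC2 (24 cells) and 0.300 in EC3 (35 cells), so the highest value came from EC2. These cells share libraries, depth and dropout.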
